A study of Mus musculus with 3 samples.

Results

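The T-box transcription factor genes are 8 family members (Tbx1, Tbx2, Tbx3, Tbx4, Tbx5, Tbx15, Tbx18 and Tbx20) that were found by gene name in the transcript annotation of a mouse heart ventricle data set. Each name led to 1 locus, so the family takes 8 of the 48626 loci with expression values and 8 of the 20117 loci of protein-coding genes (mRNA loci). The data are total RNA libraries from the ventricle of C57BL/6 mice, taken from embryos of stages E10.5 and E13.5 (days of development) and from adults 8 weeks old. They were made with a stranded kit and sequenced from both ends. A stage is represented by 1 library, so the values have no replicates and p-values cannot be given. The labels name no other treatment or genotype. Levels are FPKM, the number of fragments scaled to transcript length and library size, which allows genes of different length to be compared. Intervals in parentheses after a level are approximate 95% counting intervals that do not cover variation between animals.

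T-box proteins bind DNA through a shared T-box domain and act as activators or repressors of transcription. In the heart, Tbx5 and Tbx20 work together with Nkx2-5 and Gata4 in the chamber muscle, while Tbx2 and Tbx3 repress the chamber programme in the atrioventricular canal and the conduction system. Tbx18 is known from the epicardium and the sinus horns, Tbx1 from the pharyngeal region and the second heart field, Tbx4 from the hindlimb and lung, and Tbx15 from skeleton, muscle and skin.

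The ventricle libraries held strong signal of heart muscle. The median FPKM of 5 ventricular cardiomyocyte markers was 1121 in the E10.5, 2238 in the E13.5 and 3148 in the Adult library, although the locus of 1 of them, Myl2, also takes in Ccdc63. Of 4 atrial markers, 3 had a log2(FPKM + 1) value that was at least 1 lower in the adult than in the E10.5 library, among them Myl7 at 2453, 1935 and 0.719 FPKM. At E10.5 Myl7 was above the median of the ventricular list, and at E13.5 Myl4, another atrial marker, was above it at 2440 FPKM. These values therefore do not tell ventricle from atrium at either embryonic stage. Skeletal muscle markers did not exceed 0.454 FPKM. The lung and limb genes that had a locus did not exceed 0.142 FPKM, with the lung epithelial genes Nkx2-1 and Sftpc listed at 0 in the 3 libraries. No lung mesenchyme gene of the list was matched to an mRNA locus, so that tissue was not checked. The deposited scaling leaves a shift between the libraries, which is given beside the changes below.

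The 8 loci lie on 5 chromosomes of GRCm38, and 3 pairs share a chromosome. Tbx3 (chr5:119670025-119684676) and Tbx5 (chr5:119796682-119885372) are neighbours on the plus strand, as are Tbx2 (chr11:85832615-85842054) and Tbx4 (chr11:85890063-85916097). Tbx18 (chr9:87702800-87731403) and Tbx20 (chr9:24715961-24774489) are on the minus strand, as is Tbx1 (chr16:18581713-18586969), and Tbx15 (chr3:99253760-99354260) is on the plus strand. The neighbouring genes did not have like levels, since Tbx5 was above Tbx3 and Tbx2 was above Tbx4 in each library.

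The starts of the assembled transcripts are shown first, because they show where each locus is read from. RefSeq promoter windows were at hand for 4 of the 8 genes (Tbx20, Tbx18, Tbx4 and Tbx1), and assembled starts fell inside the windows of Tbx20 and Tbx18, both on the minus strand of chromosome 9. For Tbx20 the farthest assembled start lay 186 bp upstream of the RefSeq start, and for Tbx18 it lay 143 bp upstream. The bases just upstream of those assembled starts are printed here 5′ to 3′ on the strand of the gene (RefSeq, build GRCm38.p6), with a GC box (GGGCGG on either strand) in capitals.
Tbx20, chr9:24774490-24774553: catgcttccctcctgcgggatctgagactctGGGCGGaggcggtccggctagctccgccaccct
Tbx18, chr9:87731404-87731510: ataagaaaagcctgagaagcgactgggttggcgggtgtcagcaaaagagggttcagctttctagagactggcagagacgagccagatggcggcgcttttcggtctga
The Tbx20 stretch held 1 GC box and had a GC content of 68.8%, against 54.2% and no GC box for the Tbx18 stretch. In the whole windows of 250 bases before the RefSeq start, Tbx20 had a further GC box 95 bases before that start and Tbx18 had none. Of 32851 such RefSeq windows, 32.7% held a GC box. The letters GGTGTG, the core of the T-box binding element, were searched on both strands and were in none of the 5 windows of these 4 genes (Tbx1 has a pair of windows), while 16.3% of all windows held them.

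Tbx5 was assembled with 3 starts on the plus strand of chromosome 5, at positions 119796682, 119832837 and 119834663, which begin 2, 2 and 1 of its 5 transcripts. The forward PCR primers that the study designed for its Tbx5 isoforms mark these 3 first exons, so they are printed as tags of each start, in lower case from 5′ to 3′ (GRCm38.p6, plus strand).
Tbx5 isoform1, chr5:119796846-119796865: gtccagtgttcatccggtca
Tbx5 isoform2, chr5:119832858-119832877: agctacctcgcctcagtgag
Tbx5 isoform3, chr5:119835252-119835267: gaatgcatccccctgt
Each of these primers matched chromosome 5 once and lay in the first exon of the transcripts of its own start. FPKM values are given per locus, so the share of each start in the level of Tbx5 was not measured here.

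The family fell into 5 genes that were at 1 FPKM or more in every library and 3 that stayed under it in every library. Tbx20, an activator and repressor in chamber muscle, had the highest level at each stage, with 109 FPKM (108 to 111) for E10.5, 120 FPKM (119 to 121) for E13.5 and 44.1 FPKM (43.1 to 45.2) for the adult. Its percentile among all mRNA loci was 97.7, 97.2 and 94.5 in these libraries. The E10.5 and E13.5 levels lay near each other and the adult level lay below both.

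Tbx18, a repressor known from the epicardium, was second in the embryo, at 33.1 FPKM (31.8 to 34.4) at E10.5 and 28.8 FPKM (27.9 to 29.7) at E13.5. In the adult it stood at 1.83 FPKM (1.53 to 2.16), which rests on about 136 fragments. Its percentile among all mRNA loci was 89.95 and 86.7 in the embryonic libraries and 49.2 in the adult.

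Tbx5, the activator that is dosage sensitive in heart and forelimb development, was at 14.5 FPKM (13.53 to 15.5), 7.80 FPKM (7.30 to 8.33) and 4.23 FPKM (3.72 to 4.78) in the E10.5, E13.5 and Adult libraries. In the deposited values its level was lower at each later stage, and the 3 counting intervals did not overlap. These intervals do not cover the scaling between libraries, which is taken up below.

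The repressors of the chamber programme were both low. Tbx2 stood at 3.08 FPKM (2.66 to 3.53), 4.94 FPKM (4.56 to 5.35) and 2.27 FPKM (1.92 to 2.66) in the E10.5, E13.5 and Adult libraries. Tbx3 stood at 2.68 FPKM (2.34 to 3.04), 2.37 FPKM (2.15 to 2.62) and 1.85 FPKM (1.58 to 2.16) in the same order. Tbx2 was highest at E13.5, where its level was 2.08 times that of Tbx3, against 1.15 times at E10.5 and 1.23 times in the adult. The intervals of Tbx2 and Tbx3 overlapped at E10.5 and in the adult and did not overlap at E13.5.

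Genes best known outside the ventricle were close to the detection limit. Tbx1 was at 0.0488, 0.336 and 0.220 FPKM in the E10.5, E13.5 and Adult libraries, which is about 1, 16 and 5 fragments. Tbx4 was at 0.0187, 0.196 and 0.0270 FPKM, or about 1, 17 and 1 fragments. Tbx15 was at 0.0318, 0.153 and 0.198 FPKM, or about 2, 15 and 10 fragments. At this depth their order could not be told apart, since neighbours among these 3 genes had overlapping intervals in each library. In particular, the E10.5 values rest on 1 or 2 fragments. The counting interval of the ratio of adult to E10.5 was 0.559 to 236 for Tbx1 and 0.0127 to 78.5 for Tbx4. Both take in 1, so a difference from the adult cannot be shown for either gene. For Tbx15 the interval was 1.07 to 46.9.

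**Figure D1:**
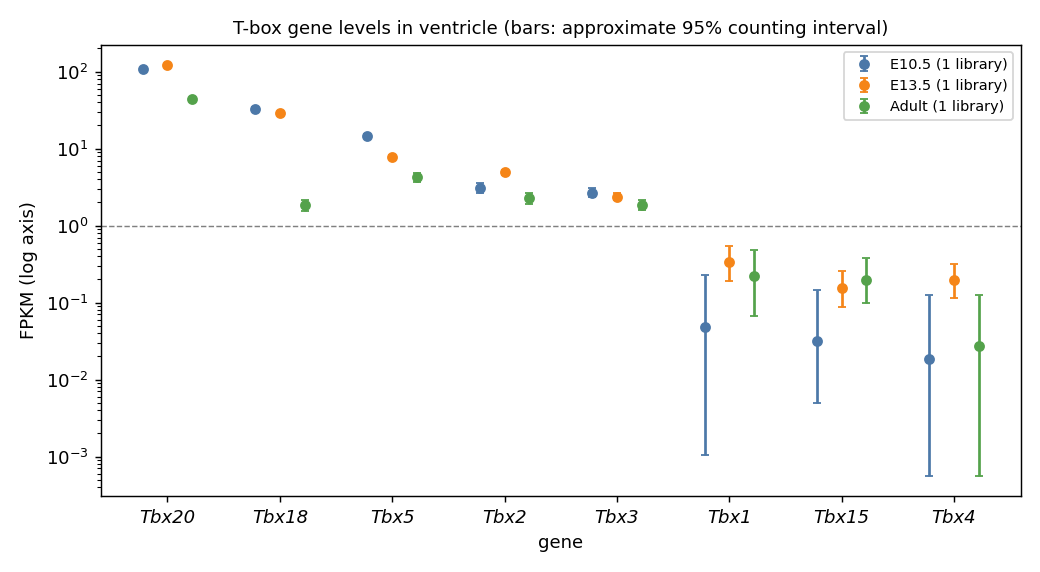
FPKM on a log axis of the 8 T-box genes in the E10.5, E13.5 and Adult libraries (1 library each), with approximate 95% counting intervals as bars and a dashed line at 1 FPKM. Tbx20 is the highest in each library (109, 120 and 44.1 FPKM), Tbx18 is at 33.1 and 28.8 FPKM in the embryo and 1.83 FPKM in the adult, and Tbx1, Tbx15 and Tbx4 lie under 1 FPKM.

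Within a library, shares and ratios do not depend on how the libraries were scaled to each other. The summed level of the 8 genes was 163, 165 and 54.8 FPKM in the E10.5, E13.5 and Adult libraries. Tbx20 took 67.2%, 72.9% and 80.6% of this sum, and Tbx18 took 20.4%, 17.5% and 3.34%. Tbx5 took 8.89%, 4.74% and 7.73%. Among these 8 genes Tbx20 took the largest share in every library, followed by Tbx18 in the embryo and by Tbx5 in the adult. When Mga and the other 8 T-box genes of the annotation were counted too, the share of Tbx20 was 59.4%, 67.3% and 62.2%, so its higher share in the adult than at E13.5 holds only among the 8 genes.

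The ratio of Tbx20 to Tbx5, the pair of chamber activators, was 7.55, 15.4 and 10.4. Tbx18 stood at 2.29 and 3.69 times the level of Tbx5 at E10.5 and E13.5 and at 0.432 times in the adult. In the adult the order was Tbx20, Tbx5, Tbx2, Tbx3 and Tbx18, where Tbx2 and Tbx3, and Tbx3 and Tbx18, had overlapping intervals.

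**Figure D2:**
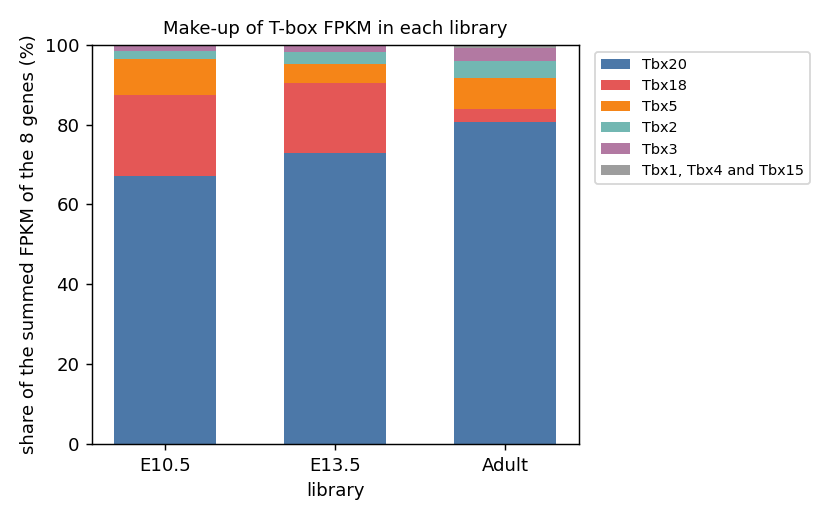
Stacked bars of the share in percent that each T-box gene takes of the summed FPKM of the 8 genes, for the E10.5, E13.5 and Adult libraries (1 library each, no error). Tbx20 takes 67.2% of the E10.5 bar and 80.6% of the Adult bar, and Tbx18 is at 20.4% at E10.5 and 3.34% in the adult.

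Changes between stages were taken as differences of log2(FPKM + 1), which understates those of low genes, and a difference of 1 or more was counted as past the fold. Between E10.5 and E13.5, 0 of the 8 genes passed it in either direction, while 5.89% of the 12569 expressed mRNA loci were higher by that much at E13.5 and 4.85% were lower. Tbx5 came nearest, with a difference of -0.81 and a ratio of E13.5 to E10.5 of 0.540 (counting interval 0.491 to 0.592). Tbx2 went the other way, with a difference of 0.54 and a ratio of 1.61 (1.37 to 1.90). Tbx20, Tbx18 and Tbx3 differed by 0.13, -0.19 and -0.12. The value for Tbx20 turned to -0.02 with median-of-ratios scaling of the libraries and to -0.18 with scaling to the mRNA sum without globin loci, so its direction depends on the scaling. Tbx5 passed the fold with the latter scaling, at -1.09, and Tbx2 stayed positive with both, at 0.41 and 0.29. The median difference of the 8 genes was 0.15, beside 0.17 for all expressed mRNA loci.

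From E13.5 to the adult, 2 of the 8 genes were lower past the fold and 0 were higher, against 32.1% lower and 13.0% higher among all expressed mRNA loci. Tbx18 had the widest difference of the family, -3.40, a 15.8-fold lower level, with a ratio of adult to E13.5 of 0.0635 (0.0530 to 0.0752). Tbx20 differed by -1.42, a 2.72-fold lower level. Tbx2 and Tbx5 differed by -0.86 and -0.75 and Tbx3 by -0.24. The median difference of all expressed mRNA loci was -0.50, the same as that of the 8 genes, and the values of Tbx2 and Tbx5 lay below it.

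From E10.5 to the adult, 3 of the 8 genes were lower past the fold and 0 were higher, against 27.3% lower and 14.8% higher among all expressed mRNA loci. Tbx18 differed by -3.59, an 18.1-fold lower level that placed it at percentile 1.87 of all changes. Tbx5 differed by -1.56, a 3.42-fold lower level with a ratio of 0.293 (0.253 to 0.336). Tbx20 differed by -1.29, a 2.47-fold lower level. Tbx3 and Tbx2 differed by -0.37 and -0.32, near the median of all expressed mRNA loci of -0.40, and the median of the 8 genes was -0.34. Genes under 1 FPKM can hardly pass a difference of 1 on this scale, which holds for Tbx1, Tbx4 and Tbx15.

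The scaling moved the adult comparisons. With median-of-ratios factors, which bring the median of all loci to between -0.06 and 0.04, 18.9% of loci were lower and 20.8% higher in the adult than at E13.5, and 18.4% were lower and 20% higher than at E10.5. Tbx18 was then at -2.94 and -3.29 and remained past the fold against E13.5 and E10.5. Tbx5 was at -1.21 against E10.5 and also remained, but against E13.5 it was at -0.27 in place of -0.75. Tbx20 was at -0.86 and -0.88 and no longer passed, and Tbx3 turned to 0.14 against E13.5. In bulk RNA, fewer cells of a type and less RNA per cell cannot be told apart.

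**Figure D3:**
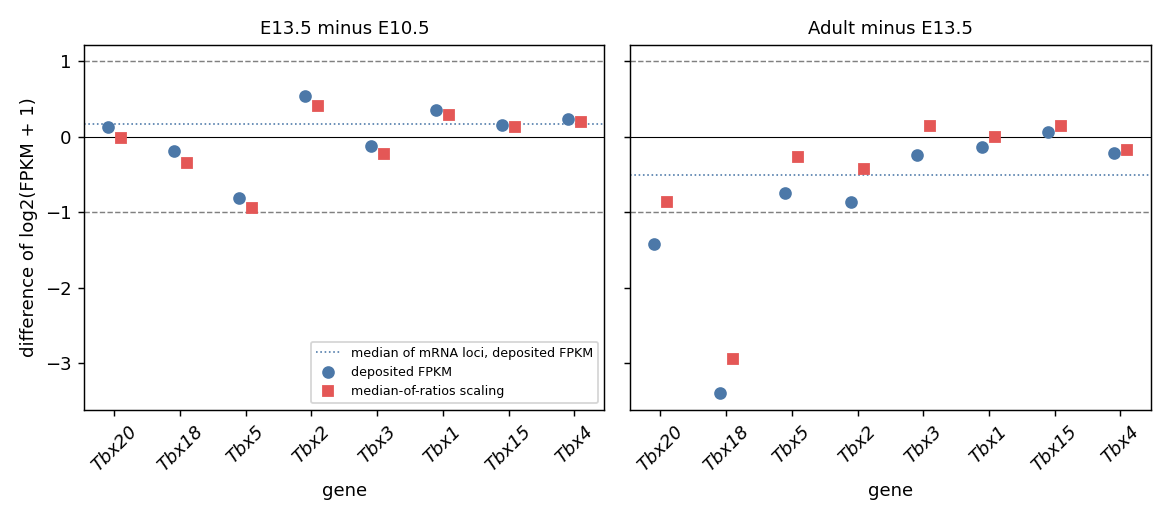
Difference of log2(FPKM + 1) of each T-box gene for E13.5 minus E10.5 (left) and Adult minus E13.5 (right), with deposited FPKM as circles and median-of-ratios scaling as squares, dashed lines at 1 and -1, and a dotted line at the median of all expressed mRNA loci. Tbx18 lies at -3.40 and -2.94 in the right panel, and Tbx20 crosses the line at -1, from -1.42 to -0.86.

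Of the 9 further members of the family in the annotation, only Mga, a T-box protein that partners Max, reached 1 FPKM, at 20.7, 13.3 and 15.2 FPKM in the E10.5, E13.5 and Adult libraries. Mga was thus above Tbx5 in each library and was second to Tbx20 in the adult. The other 8 genes, among them Eomes and T (brachyury), did not exceed 0.409 FPKM. Between stages, 0 of the 9 passed the fold. In all, 6 of 17 T-box genes reached 1 FPKM in a library.

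The lists that follow are read for Adult against E10.5, where 27.3% of all expressed mRNA loci were lower past the fold and 14.8% were higher, with a median of -0.40. Of 11 cardiac transcription factor partners, 7 were lower past the fold and 0 were higher, with a median difference of -1.61. With median-of-ratios scaling 6 were lower and 1, Mef2a, was higher. Nkx2-5, the homeobox partner of Tbx5 and Tbx20, was at 46.8, 61.1 and 9.37 FPKM in the E10.5, E13.5 and Adult libraries. Gata4, the zinc finger partner, was at 63.6, 43.0 and 19.5 FPKM. Mef2a, a myocyte enhancer factor, went the other way with 42.3, 39.9 and 67.3 FPKM.

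Chamber genes, which include targets that Tbx5 activates and Tbx2 and Tbx3 repress, split by direction. Of 11 genes, 5 were lower and 4 were higher past the fold when Adult was set against E10.5, with a median of -0.81. Nppa, the atrial natriuretic peptide gene, was at 1744, 2385 and 37.9 FPKM, and Gja5, which encodes connexin 40, was at 36.7, 71.2 and 2.38 FPKM. Cited1, a transcriptional coactivator gene, was at 360, 393 and 0.403 FPKM. Atp2a2, the calcium pump of the sarcoplasmic reticulum, was at 337, 228 and 2456 FPKM. Nppa, Gja5 and Cited1 were thus high in both embryonic libraries and low in the adult, while Atp2a2 was highest in the adult.

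Genes of the atrioventricular canal and conduction system, where Tbx2 and Tbx3 are known to act, were mostly lower in the adult. Of 8 genes, 6 were lower and 1 was higher past the fold when Adult was set against E10.5, with a median of -1.36. Bmp2, a ligand upstream of Tbx2, was at 2.49, 4.75 and 0.309 FPKM and Hcn4, the pacemaker channel, was at 4.55, 2.41 and 0.511 FPKM. Bmp2 was highest at E13.5, as was Tbx2, but so were Msx2, Hey1, Id2, Cacna1g and Shox2 of the same list. Hcn4 and Gjc1 were highest at E10.5. A link between Bmp2 and Tbx2 was not tested. Tbx2 and Tbx3 themselves did not pass the fold.

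Of 9 second heart field and outflow genes, the setting in which Tbx1 is known, 5 were lower and 0 were higher past the fold when Adult was set against E10.5, with a median of -1.20. Isl1, a factor of cardiac progenitors, was at 0.291, 3.76 and 0.0441 FPKM, and Wnt5a, a secreted Wnt ligand, was at 21.5, 12.6 and 3.51 FPKM. Isl1 was highest at E13.5, as was Tbx1, whose values rest on at most about 16 fragments. Fgf8, a known target of Tbx1, did not exceed 0.0879 FPKM.

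Most markers of the epicardium lay in the same direction as Tbx18. Of 7 markers, 5 were lower and 0 were higher past the fold when Adult was set against E10.5, with a median of -2.17 and a summed level of 132, 161 and 22.4 FPKM in the E10.5, E13.5 and Adult libraries. Upk3b, a marker of mesothelium, was at 52.6, 43.7 and 1.49 FPKM, Tcf21 was at 18.3, 22.9 and 1.79 FPKM, and Wt1 was at 8.74, 9.53 and 1.36 FPKM. The Krt19 locus, at 18.1, 41.5 and 2.57 FPKM, also takes in Krt14, Krt17 and Krt42. The markers that did not pass were Aldh1a2, at 14.7, 23.0 and 10.1 FPKM (difference -0.49), and Msln, which lay in the other direction at 0.555, 3.24 and 1.63 FPKM (0.76, and past the fold with a pseudocount of 0.1). No defining marker of the list was listed at 0. The part of the epicardial share of the tissue in the Tbx18 level was not tested.

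Markers of mural cells, in which Tbx18 is also known to be expressed, summed to 92.5, 84.4 and 374 FPKM. Abcc9 was the highest of them at E10.5, with 51.4, 13.8 and 92.5 FPKM in the E10.5, E13.5 and Adult libraries. Rgs5 was the highest at E13.5 and in the adult, with 9.81, 47.2 and 240 FPKM. Of these 6 markers, 2 were higher and 1 was lower past the fold when Adult was set against E10.5. The summed levels were 221, 530 and 485 FPKM for 5 fibroblast markers, 176, 110 and 201 FPKM for 4 endothelial markers, and 4.58, 25.6 and 78.1 FPKM for 3 macrophage markers. Past the fold, 1 fibroblast, 0 endothelial and 3 macrophage markers were higher in that comparison, and none of them was lower. Among the 5 ventricular cardiomyocyte markers 2 were higher and 0 were lower. With median-of-ratios scaling, the genes lower past the fold were 5 of 11 chamber genes, 5 of 8 atrioventricular canal and conduction genes, 4 of 9 second heart field and outflow genes and 5 of 7 epicardial markers. The higher counts became 4 of 6 mural, 3 of 5 ventricular cardiomyocyte and 1 of 4 endothelial markers, and those of the other lists besides the partners did not move. The summed mural level was highest in the library in which Tbx18 was lowest, and Rgs5 made up most of it there. Cspg4 was the 1 mural marker lower past the fold, at 17.4, 5.03 and 4.34 FPKM in the E10.5, E13.5 and Adult libraries. The part of mural cells in the Tbx18 level was not tested.

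**Figure D4:**
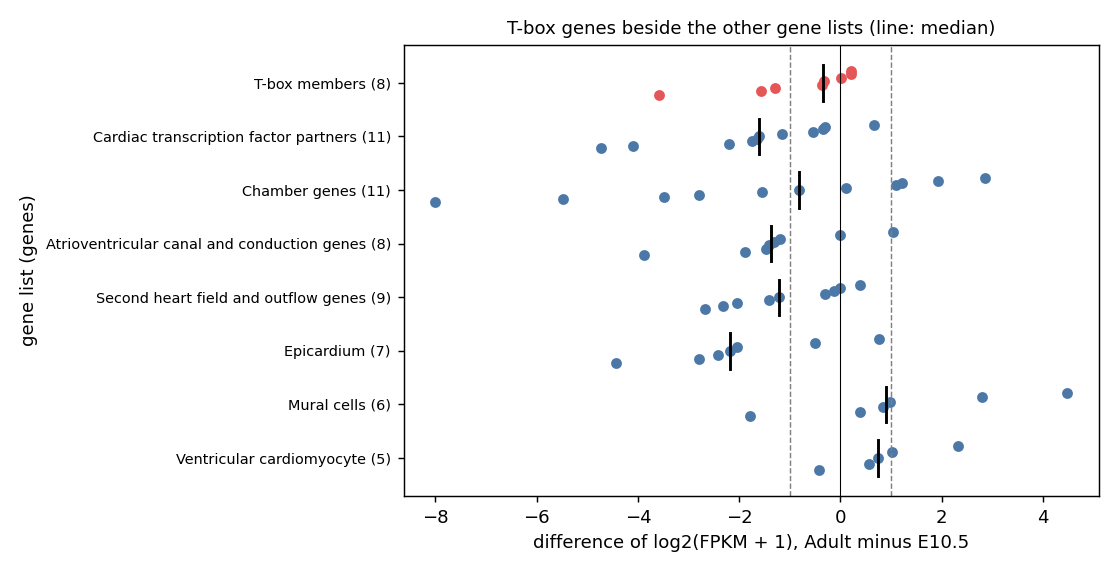
Difference of log2(FPKM + 1), Adult minus E10.5, of the 8 T-box genes (top row) and of the genes of 7 lists, with 1 point per gene, a black line at the median of each row and dashed lines at 1 and -1. The T-box row runs from -3.59 for Tbx18 to 0.22, and the epicardium row has its median at -2.17.

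Unmatched transcripts, which match no RefSeq transcript, were looked for within 10 kb of the 8 genes, because the study was about lncRNAs close to cardiac transcription factor genes. There were 12 such loci at 5 genes (8 at Tbx5 and 1 each at Tbx2, Tbx3, Tbx18 and Tbx20), and none at Tbx1, Tbx4 or Tbx15. Of all mRNA loci, 35.8% had at least 1. On the opposite strand lay 4 of the 12 loci. A spliced locus on the opposite strand was found at 3 of the 8 genes (Tbx2, Tbx5 and Tbx20) and at 1.72% of all mRNA loci, expressed or not. The study had already reported bidirectional lncRNAs at Tbx5 and Tbx20 from these libraries, so no enrichment was tested here. Fragment numbers and counting intervals were not estimated for the unmatched loci, so their levels are given without an error.

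At Tbx2, a transcript of 4 exons and 713 nt ran away from the gene on the minus strand of chromosome 11, with its start 305 bp from that of Tbx2. It overlaps 2610027K06Rik of the GENCODE annotation and lies antisense to Bcas3. Its level was 1.82, 0.904 and 0.214 FPKM in the E10.5, E13.5 and Adult libraries. Its ratio to Tbx2 was 0.591, 0.183 and 0.0943 in this order. In the deposited values the transcript was lower at each later stage, while Tbx2 itself was highest at E13.5. The adult value of the transcript was near that of Tbx1 in that library (0.220 FPKM, about 5 fragments). Since the transcript is shorter than Tbx1 (713 against 1777 nt), that value rests on few fragments.

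At Tbx20, a transcript of 3 exons and 1280 nt, which overlaps Gm29824, began 1348 bp from the Tbx20 start and was at 0.691, 1.30 and 0.111 FPKM. It was highest at E13.5 and lowest in the adult, as was Tbx20 in the deposited values, but at no more than 0.0108 times the level of Tbx20. The adult value of this transcript lay below that of Tbx1 there (0.220 FPKM, about 5 fragments) and also rests on few fragments. At Tbx18, the single locus was an unspliced one on the opposite strand, 9504 bp away, at 0.119, 0.371 and 0.0424 FPKM. At Tbx3, an unspliced locus of 355 nt on the same strand, 3068 bp upstream, was at 1.52 FPKM in the adult, at 0.115 FPKM at E13.5 and listed at 0 at E10.5. At such a short length these values also rest on few fragments. The annotated antisense gene LOC433944 (Tbx3os2 in RefSeq), 412 bp past the end of Tbx3, did not exceed 0.0350 FPKM.

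The Tbx5 locus had the most unmatched transcripts. The divergent lncRNA, named Tbx5ua by the study, starts 819 bp from the second Tbx5 start and was at 5.004, 5.77 and 2.67 FPKM in the E10.5, E13.5 and Adult libraries. Its ratio to Tbx5 was 0.346, 0.739 and 0.632 in this order. By qRT-PCR with replicates, scaled to Gapdh, the study measured a rise of Tbx5ua over ventricle development while Tbx5 fell. The FPKM of Tbx5ua in these single libraries was instead lowest in the adult. On the plus strand, the same strand as Tbx5, lay 7 further loci inside the intron that follows the first Tbx5 exon. A spliced one of 2 exons and 323 nt began 89 bp from the outermost Tbx5ua start and ended 212 bp before the second Tbx5 start. It was at 5.32, 1.94 and 1.34 FPKM, 0.368, 0.249 and 0.316 times the level of Tbx5.

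The other 6 plus-strand loci were single exons of 271 to 989 nt. Of these, 5 lay within the first 7664 bp after the first Tbx5 start, and the first of them begins at the base that follows the first exon. All 6 were lower at E13.5 than at E10.5, with 1.007 to 4.55 FPKM at E10.5 and at most 1.72 FPKM at E13.5, and all 6 were listed at 0 in the adult. Total RNA also holds unspliced transcripts, and reads of an unspliced Tbx5 transcript and of a separate transcript on the same strand cannot be told apart in these values. Of the introns of the spliced loci, those at Tbx2 (3 of 3), Tbx20 (2 of 2) and the Tbx5 plus strand (1 of 1) and 6 of 7 of Tbx5ua began with GT and ended with AG.

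**Figure D5:**
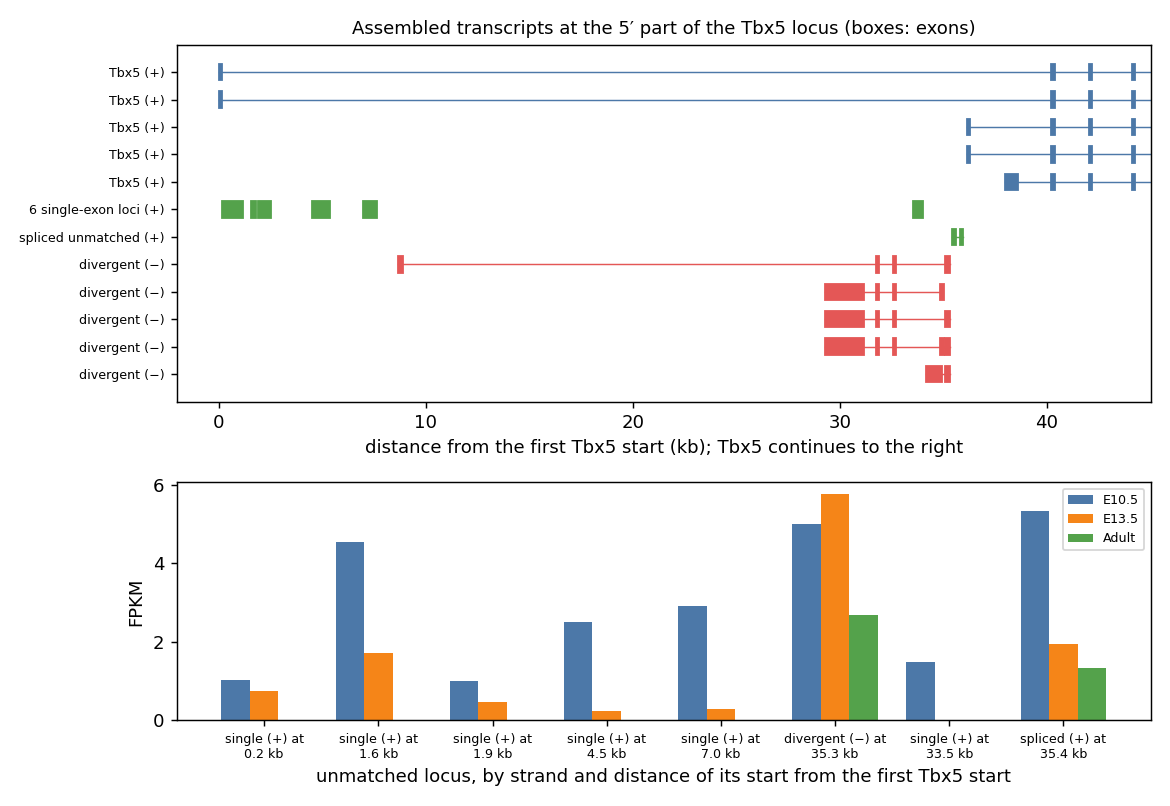
Upper panel, exons (boxes) of the 5 Tbx5 transcripts, the unmatched plus-strand loci and Tbx5ua, by distance in kb from the first Tbx5 start. Lower panel, FPKM of each unmatched locus in the E10.5, E13.5 and Adult libraries (1 library each, no error), where the single-exon loci have no adult bar because they are listed at 0, and Tbx5ua is at 5.004, 5.77 and 2.67 FPKM.

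Genes whose levels ran closest to those of a T-box gene over the 3 libraries were found by the Euclidean distance of log2(FPKM + 1) among 12071 mRNA loci with 1 gene name. For Tbx5 they were Cacna1d (distance 0.0763), a calcium channel gene, C330019G07Rik (0.216) and Chka (0.228). For Tbx20 they were Ddost (0.0994), Txn1 (0.139) and Eif1ax (0.194). For Tbx18 they were 2610018G03Rik (0.260), Hells (0.261), a chromatin remodeller of dividing cells, and Zcchc3 (0.369). Tbx2 was nearest to Rilpl2 (0.0656), Gm12942 (0.0833) and Tmem110 (0.119), and Tbx3 to Zfp53 (0.0626), Zfp202 (0.0918) and Cnnm2 (0.0960). With 3 libraries such a likeness is a description of 3 values per gene.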

How the data were processed

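Total RNA of heart ventricle was measured in 3 libraries, 1 per stage. Reads had been aligned by the authors to mm10 using TopHat2 and Bowtie, and transcripts were assembled with Cufflinks, per the labels and the methods of the study; the exact releases and the handling of multiply mapped fragments are not given in the sources used here. The authors deposited a table of FPKM values by locus, and an annotation of the transcripts after merging. The deposited FPKM columns sum to 601115 (E10.5), 808971 (E13.5) and 443471 (adult). Of 185861 annotated introns, 185154 (99.6%) were found in a GRCm38 annotation, so coordinates are GRCm38.

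Read counts were not used here. Depth was estimated from the most frequent low step of FPKM times length over 22263 single-exon loci, about 0.0725, 0.0375 and 0.0725, so that 1 FPKM over 1 kb is about 13.8, 26.7 and 13.8 fragments. Exact Poisson intervals on these fragments cover counting error only and are approximate. Changes are differences of log2(FPKM + 1) with a pseudocount of 1, and background shares use the 12569 mRNA loci that reached 1 FPKM in any library. The 8 genes, the gene lists and the cell markers were chosen with earlier results of these data known. Named list genes are those with the highest FPKM or known markers of the cells a T-box gene marks, and for each T-box gene at 1 FPKM or more, the 3 nearest mRNA loci. Alternatives were median-of-ratios scaling, scaling without globin loci, a pseudocount of 0.1, a difference of 2, no filter, all T-box genes, other windows and transcript lengths. The steps were tested on simulated data. All steps ran in Python 3.11.15 (pandas 2.3.3, scipy 1.17.1, numpy 2.4.6). The values of 1 listed gene are not reported here.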

Additional observations from a re-analysis of the deposited data

How the results depend on the processing

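No paired analysis was possible because there is 1 library per stage, and no replicate could be left out. The signs of the 24 changes of the T-box genes were the same for 22 with median-of-ratios scaling, 23 with scaling without globin loci and 24 with a pseudocount of 0.1. The exceptions were Tbx20 for E13.5 against E10.5 (-0.02 and -0.18 in place of 0.13) and Tbx3 for the adult against E13.5 (0.14 in place of -0.24). With median-of-ratios scaling, 1 T-box gene was lower past the fold in the adult than at E13.5, with background shares of 20.8% higher and 18.9% lower. Without globin loci, 1 T-box gene (Tbx5) was lower at E13.5 than at E10.5, with background shares of 3.36% higher and 8.64% lower. A pseudocount of 0.1 gave 2 genes higher at E13.5 than at E10.5 and 2 higher in Adult against E10.5, and 4 lower in the adult than at E13.5, with background shares of 10.2% higher and 7.54% lower at E13.5, 17.5% higher for the adult against E10.5 and 36.9% lower for the adult against E13.5. The genes added as higher were those under 1 FPKM. At a difference of 2, background shares were 0.851% and 0.247% (E13.5 against E10.5, higher and lower), 4.41% and 9.88% (adult against E13.5) and 5.59% and 8.1% (adult against E10.5), and 1 T-box gene, Tbx18, was lower in each adult comparison. Without the filter on low values they were 3.68% and 3.03%, 8.14% and 20%, and 9.23% and 17.1%. Over all T-box genes in place of 8, the shares in the E10.5, E13.5 and Adult libraries were 59.4%, 67.3% and 62.2% for Tbx20, 18.0%, 16.2% and 2.58% for Tbx18 and 7.86%, 4.38% and 5.97% for Tbx5, since Mga enters the sum. Keeping spliced loci of known strand left 4 unmatched loci in place of 12. With centred values, the 3 nearest genes of each of 5 T-box genes shared none with those above. Depth limits the genes under 1 FPKM, whose values rest on about 1 to 17 fragments. Taking the longest or the shortest transcript as the length of a locus moved 13 and 15 of 24 fragment estimates by more than their counting interval, and the levels themselves are not affected by that choice. Median-of-ratios counts of the gene lists were added after the data had been seen.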
